A study of Mus musculus with 2 samples.

Results

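The cells described here are quiescent pituitary stem cells (SCs) that are rich in *Aldh1a2* and without a detected *Ednrb* transcript, in a droplet single-cell dataset of the Sox9iresGFP-positive fraction of mouse pituitary at postnatal day 3. They were selected on unique molecular identifiers (UMIs, one for each captured transcript). A barcode was a member if it held at least 4 UMIs of *Aldh1a2*, at least 1 of *Sox2*, 0 of *Ednrb*, 0 of *Lef1* and at most 2 of *Col1a1* and *Col3a1* together. It could also hold at most 1 UMI over 7 genes of G2 and M phase, and at most 2 over 7 genes of S phase. By this rule, 715 of 8009 male and 570 of 5604 female cells were members, which is 1285 of 13613 cells in all. The values of these 20 genes chose the members, and are therefore given as a description.

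The dataset holds 1 library of a male and 1 of a female pool of pituitaries. All animals carried *Sox9iresGFP/+*, in which green fluorescent protein follows the *Sox9* transcript, and green cells were taken by flow sorting. The protein can outlast the transcript, so that the fraction holds SCs, their recent progeny and other *Sox9*-expressing cells. The labels name no treatment, and both groups had the same age and genotype. With 1 library per sex there is no replicate, no test was made, and limits in brackets cover counting error only. They are 95% limits for levels and shares, and wider for ratios.

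ALDH1A2 is a retinaldehyde dehydrogenase, the enzyme that makes retinoic acid from retinaldehyde. Retinoic acid acts on nuclear receptors of the cell that makes it or of its neighbours. Pituitary SCs line the cleft between the anterior and intermediate lobes and also form groups within the anterior lobe. They express the transcription factors SOX2 and SOX9, are held together as an epithelium, and produce all endocrine cell types of the anterior lobe. *Ednrb* encodes the endothelin receptor type B, and *Lef1* a transcription factor of the WNT pathway.

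The selection gene, *Aldh1a2*, lies on chromosome 9 from 71215789 to 71296243 (ENSMUSG00000013584, mm10, plus strand). Of the other 5 marker genes, *Sox2* was also used in the rule, while *Ramp1*, *Gpha2*, *Crym* and *Cldn10* were not. *Ramp1* lies on chromosome 1 from 91179822 to 91225196 and encodes an accessory protein of the calcitonin receptor family. *Gpha2* lies on chromosome 19 from 6226380 to 6227768 and encodes the alpha subunit of the glycoprotein hormone thyrostimulin. *Crym* lies on chromosome 7 from 120186380 to 120202111 and encodes a protein that binds thyroid hormone. *Cldn10* lies on chromosome 14 from 118787908 to 118875489 and encodes a tight junction claudin.

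The promoters of the selection gene and of *Gpha2* and *Ramp1* are shown. *Gpha2* and *Ramp1* had the highest and the third highest excess in the members (below). Every member holds *Aldh1a2* by the rule, and joint detection of *Gpha2* with *Ramp1* is not given here. Each window runs from 250 bases before to 50 bases after the RefSeq start of the gene (GRCm38.p6, plus strand for all 3), which for *Gpha2* is not the gene start of the annotation used elsewhere here. They are at chr9:71215539-71215838 for *Aldh1a2*, chr19:6226151-6226450 for *Gpha2* and chr1:91179572-91179871 for *Ramp1*. Capitals mark any match, on either strand, to the SOX core ACAAT, the nuclear receptor half-site AGGTCA, the CCAAT box or the TATA box TATAAA.
Aldh1a2: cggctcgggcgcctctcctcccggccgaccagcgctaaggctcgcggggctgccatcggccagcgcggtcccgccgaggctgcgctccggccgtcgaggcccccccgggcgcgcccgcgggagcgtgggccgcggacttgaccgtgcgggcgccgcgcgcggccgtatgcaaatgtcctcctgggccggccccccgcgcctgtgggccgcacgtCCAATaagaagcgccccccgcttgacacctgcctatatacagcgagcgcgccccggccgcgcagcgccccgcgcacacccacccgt
Gpha2: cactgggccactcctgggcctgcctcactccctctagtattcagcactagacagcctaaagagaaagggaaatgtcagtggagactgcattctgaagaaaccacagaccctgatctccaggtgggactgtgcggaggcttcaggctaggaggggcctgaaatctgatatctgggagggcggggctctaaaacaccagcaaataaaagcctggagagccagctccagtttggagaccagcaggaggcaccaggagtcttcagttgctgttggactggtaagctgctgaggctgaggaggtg
Ramp1: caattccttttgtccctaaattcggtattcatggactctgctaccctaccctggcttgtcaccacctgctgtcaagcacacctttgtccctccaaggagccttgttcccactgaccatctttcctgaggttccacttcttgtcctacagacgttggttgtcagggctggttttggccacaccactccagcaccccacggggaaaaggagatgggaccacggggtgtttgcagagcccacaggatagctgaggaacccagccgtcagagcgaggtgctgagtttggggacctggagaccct
The *Aldh1a2* window held 1 CCAAT box and none of the other motifs, and the *Gpha2* and *Ramp1* windows held none of the 4. Among all 32851 windows, 31.0% held the SOX core, 16.3% the half-site, 37.4% the CCAAT box and 13.6% the TATA box. Of the 19 genes that were higher in the members (below), 14 had 17 windows in the table. Of these 17 windows, 3 held the SOX core, 1 the half-site, 4 the CCAAT box and 3 the TATA box.

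The male library had 10569 barcodes and the female library 5796, with 106039887 and 62897759 UMIs. Cells with under 1000 genes or over 10% mitochondrial UMIs were left out, which removed 2560 male and 192 female barcodes. The remaining cells had a median of 11108 UMIs in male and 9892 in female cells, and 19 barcode sequences occurred in both libraries, 1 of them in a female member and none in a male member. *Xist* was at 0.256 UMIs per 1000000 UMIs of the group (CPM) in male members, where *Ddx3y* was at 48.5 CPM, matching the sex labels. Members had a median of 9771 UMIs in male and 8850 in female cells, against 11956.5 and 10192 in the other *Sox2*-positive cells. A doublet score (Scrublet) marked 22 male and 10 female members, which is 3.08% and 1.75%, against 6.41% and 4.48% of all cells.

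Among *Sox2*-positive cells, members made up 12.1% (11.3 to 12.98) of 5899 male and 11.7% (10.8 to 12.6) of 4879 female cells. The female share over the male share was 0.964, with limits of 0.832 to 1.12 that include 1. Quiescent cells with at least 2 UMIs of *Ednrb* had a different balance, with 298 male and 744 female cells and a ratio of shares of 3.02 (2.53 to 3.61). Cells that met the limits for *Aldh1a2*, *Ednrb*, *Sox2*, *Lef1* and collagen, but were over a limit for the cell cycle, were 562 and 253, with a ratio of 0.544 (0.444 to 0.665). These ratios have no replicate check. When each cell was first drawn down to 5000 UMIs, 615 male and 485 female cells met the rule, and the ratio was 0.8003 (0.683 to 0.938). Only 426 male and 349 female cells were members both ways, so that membership depends on depth and on the draw.

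*Aldh1a2* UMIs per member ran from 4 to 52 with a median of 9 in the male library, and from 4 to 48 with a median of 8 in the female library. Without the limit on this gene, 1731 male and 1369 female cells met the rule, of which 41.3% and 41.6% passed it. No gap separated members from the rest of these cells. Just outside the limit, at 3 UMIs, were 108 male and 115 female cells, and just inside, at 4 UMIs, were 87 and 86. At 3 UMIs *Ramp1* was at 116 CPM in male and 111 CPM in female cells, and at 4 UMIs at 137 and 171 CPM. *Gpha2* was at 154 and 89.3 CPM just outside and at 196 and 157 CPM just inside. *Crym* was at 258 and 199 CPM just outside, and at 350.3 and 272 CPM just inside. All 3 genes were thus higher just inside than just outside the limit, in both libraries.

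**Figure D1:**
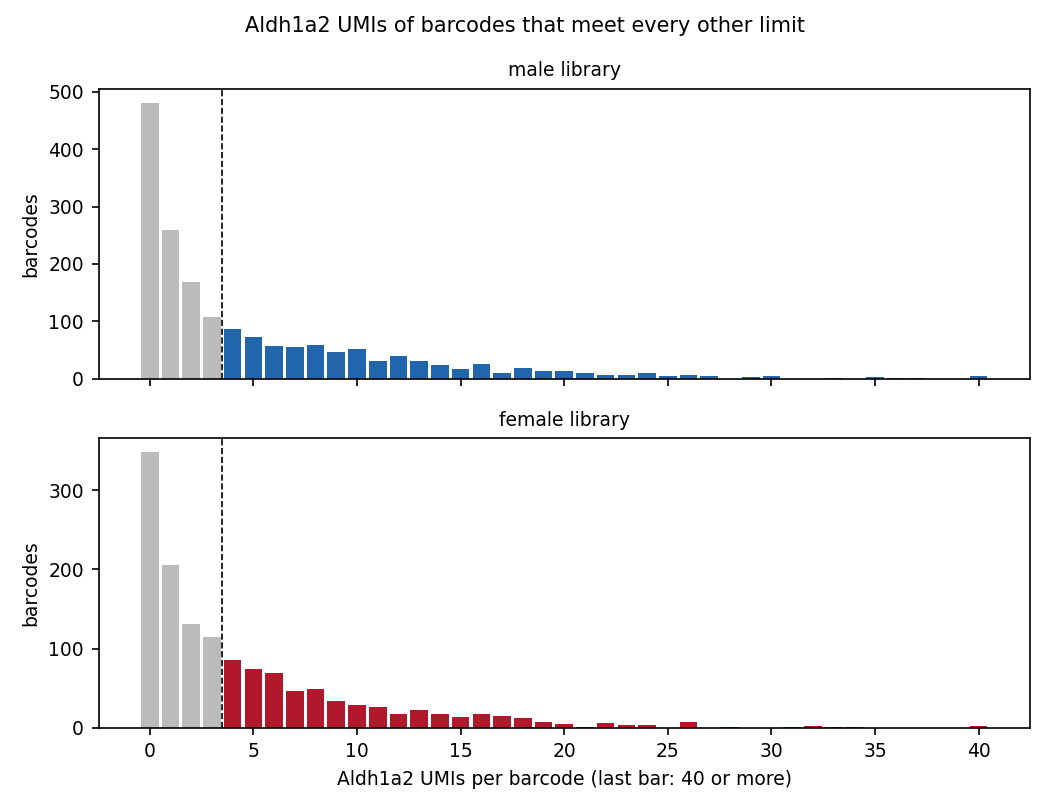
Number of barcodes (vertical axis) by *Aldh1a2* UMIs (horizontal axis) among cells that met every other limit of the rule, with the male library above and the female library below. Coloured bars right of the dashed line are the 715 male and 570 female members, and grey bars are cells with 0 to 3 UMIs. The counts decline across the line without a gap.

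Cells with no *Aldh1a2* UMI that met all other limits, 481 male and 348 female, had lower levels of each of these genes. Their *Ramp1* level was 14.6 CPM in male and 27.8 CPM in female cells. *Crym* was at 48.8 and 54.1 CPM, and *Dlk1*, which encodes a membrane protein related to Notch ligands, at 758 and 908 CPM. Within the members, *Dlk1* was at 2941 and 3535 CPM in cells with 4 to 6 *Aldh1a2* UMIs. It was at 3951 and 4304.5 CPM with 7 to 12, and at 3656 and 4682 CPM with 13 or more. In the male library *Dlk1* was thus highest in the middle bin. *Cldn10*, unlike *Dlk1*, was not higher in the highest bin than in the lowest bin of members. It was at 53.6 and 54.5 CPM in members with 4 to 6 UMIs, 68.3 and 71.6 CPM with 7 to 12, and 53.2 and 45.2 CPM with 13 or more. Cells with more *Aldh1a2* UMIs were deeper, with medians of 11148 and 10582 UMIs in the highest bin against 8471 and 8349 in the lowest bin of members.

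All 4 marker genes outside the rule were more often detected in members than in the other *Sox2*-positive cells. For shares of cells, every cell was drawn down to 5000 UMIs, and 24 male and 14 female members with fewer were not used. *Ramp1* was then detected in 50.9% (47.1 to 54.7) of male and 51.4% (47.2 to 55.7) of female members, against 20.03% and 22.4% of the other *Sox2*-positive cells. *Gpha2* was detected in 45.7% and 29.7% of members against 20.4% and 12.4%. *Crym* was detected in 79.9% and 71.6% against 41.7% and 39.2%. *Cldn10* was detected in 21.1% and 18.7% against 8.99% and 11.03%.

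As a measure of background, the shares in cells without *Sox2* and with at least 20 collagen UMIs were 2.54% and 1.59% for *Ramp1*, 1.39% and 0.398% for *Gpha2*, and 1.85% and 2.79% for *Cldn10*. *Crym* was at 19.6% and 25.1% in these collagen-rich cells, so that its share in members stands over a higher base. The collagen-rich cells had median depths of 8644 and 8002 UMIs. Before thinning, *Ramp1* was detected in 69.2% and 68.1% of members, *Gpha2* in 56.1% and 41.8%, *Crym* in 92.4% and 85.1%, and *Cldn10* in 32.9% and 31.4%.

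**Figure D2:**
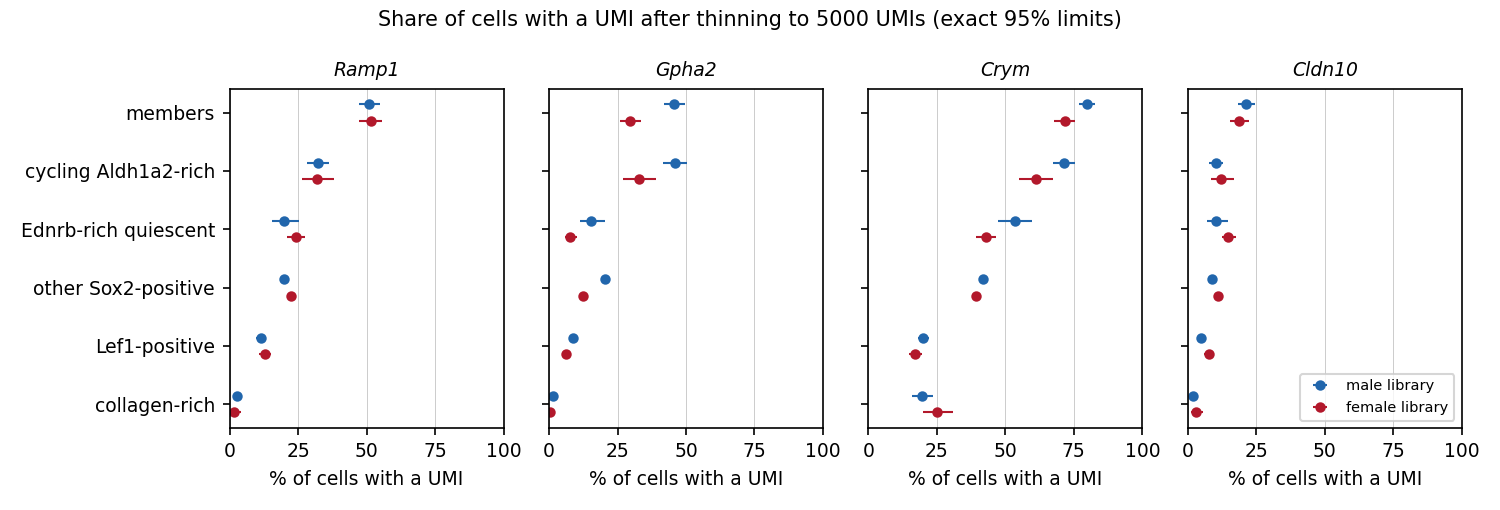
Share of cells with a UMI (percent, horizontal axes) of 4 marker genes outside the rule after thinning to 5000 UMIs, in 6 groups of cells, with the male library in blue, the female library in red and exact 95% limits as bars. *Ramp1* is at 50.9% and 51.4% in members and at 20.03% and 22.4% in the other *Sox2*-positive cells, and *Gpha2* in members is close to its shares of 46.0% and 32.8% in cycling *Aldh1a2*-rich cells.

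Members were mixed in these markers. At least 3 of the 4 were detected together in 30.1% (26.7 to 33.7) of male and 22.1% (18.7 to 25.8) of female members after thinning. None of the 4 was detected in 6.66% and 10.1% of members. At least 3 were detected in 8.27% and 5.71% of the other *Sox2*-positive cells, and in 0 of 433 and 0 of 251 collagen-rich cells. In cycling *Aldh1a2*-rich cells the shares were 17.5% and 12.3%. The label's markers were thus detected together more often in members than in these groups, with *Cldn10* as the sparsest of its genes. The markers were chosen with earlier results of these data known, so these shares describe the members only.

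For levels, UMIs were summed over a group and given as CPM. A gene was counted as higher or lower if it differed at least 2-fold the same way in both libraries, among genes at 50 CPM or more in either group. In members against the other *Sox2*-positive cells, 19 of 2988 genes (0.636%) were higher and 56 (1.87%) were lower. Because the members were chosen by measured values of the same cells, these counts describe the members and test nothing.

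The genes with the highest excess, ranked by the library with the smaller ratio, were *Gpha2*, *Ddit4l*, *Ramp1*, *Crym*, *Ntng1*, *Rgs2*, *Zim1*, *Dlk1*, *Mgll*, *Pcp4l1*, *Cbln2* and *Aldoc*. *Gpha2* was at 274 CPM (263 to 286) in male and 167 CPM (156 to 178) in female members, 2.64-fold and 3.19-fold over the other *Sox2*-positive cells. *Ramp1* was at 155 CPM (146 to 163) and 151 CPM (141 to 162), which is 2.89-fold and 2.61-fold. *Crym* was at 456 CPM (441 to 471) and 324 CPM (309 to 340), which is 2.54-fold and 2.44-fold. All ratios of these genes were between 2.03 and 3.19, so that none of them set the members apart by a large factor. Genes under the level limit were not ranked.

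*Rgs2*, which encodes a regulator that turns off G protein signals, was at 1004 and 1134 CPM against 452 and 474 CPM. *Dlk1* was at 3590 and 4124 CPM against 1721 and 1808 CPM. *Wnt5a*, a ligand that acts mostly outside the beta-catenin branch, was at 68.2 and 71.2 CPM against 33.5 and 34.3 CPM. It was the 1 higher gene among the 5 tested of the WNT list. *Wnt5a* reached the level limit only through members, so this count is no measure of the list. *Mgll*, which encodes monoacylglycerol lipase, was at 149.5 and 127 CPM against 69.6 and 43.3 CPM. *Aldoc*, a glycolytic aldolase, was at 569 CPM in both libraries against 232 and 280.4 CPM.

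**Figure D3:**
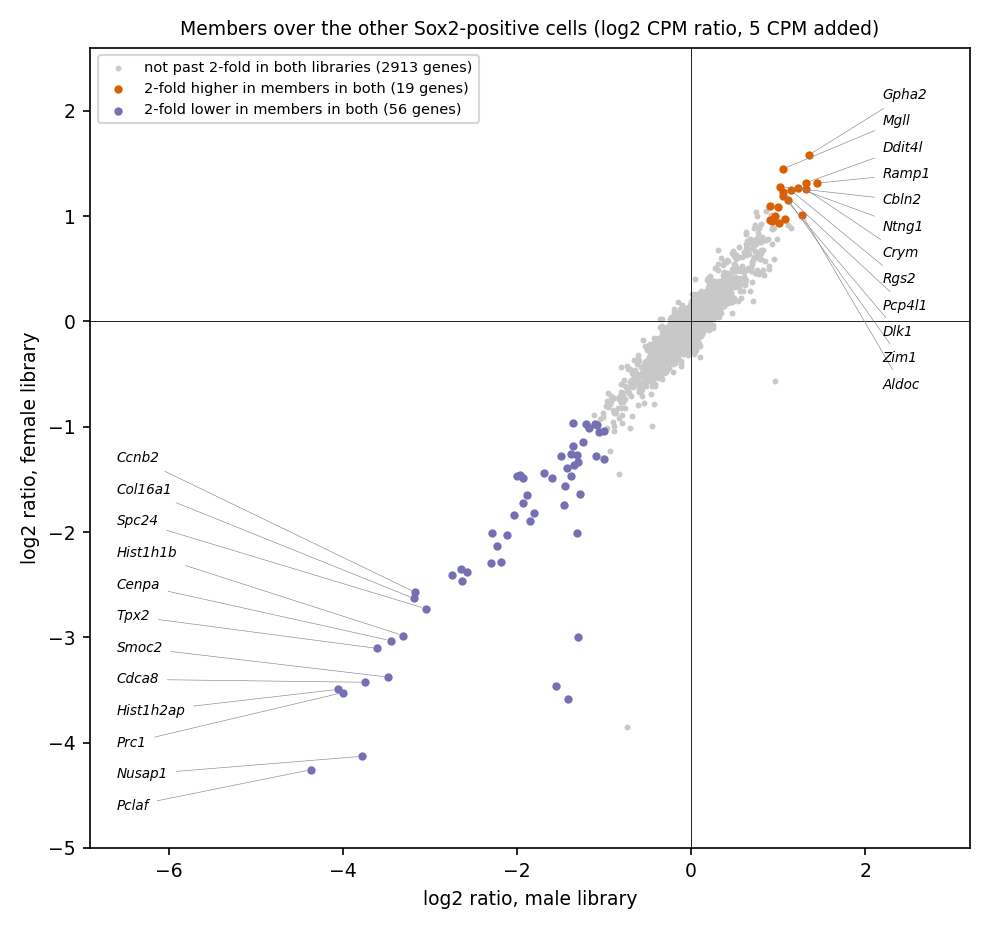
Log2 ratio of members over the other *Sox2*-positive cells in the male (horizontal) and the female library (vertical) for 2988 genes, with 5 CPM added to both levels, which pulls low genes towards 0. The 19 genes at least 2-fold higher in CPM in both libraries are orange, the 56 lower ones purple, and the 12 with the most extreme ratios each way are named. The higher genes lie within a narrow range, while cell cycle genes such as *Pclaf* and *Nusap1* lie far below.

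The retinoid genes were described from lists of synthesis, transport and receptor genes. No synthesis gene other than *Aldh1a2* reached 50 CPM in members or the other *Sox2*-positive cells. *Aldh1a1* was at 33.5 and 29.6 CPM in members, and *Aldh1a3* at 8.33 and 7.34 CPM against 3.78 and 2.14 CPM in the other *Sox2*-positive cells. *Rdh10*, which makes the retinaldehyde that ALDH1A2 uses, was at 19.6 and 20.9 CPM. *Crabp2*, which carries retinoic acid to the nucleus, was at 252 and 243 CPM against 159 and 142 CPM, while *Fabp5*, which can also carry it, was lower at 63.2 and 54.0 CPM against 169 and 129 CPM.

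The CYP26 enzymes, which break down retinoic acid, were near 0 in members and in the other *Sox2*-positive cells alike. *Cyp26b1* had 0 UMIs in the members of both libraries, which allows up to 0.385 CPM in male and 0.565 CPM in female cells. *Cyp26a1* was at 0.256 CPM in male members and had 0 UMIs in female members, against 0.246 and 0.22 CPM in the other *Sox2*-positive cells and 27.5 and 28.7 CPM in collagen-rich cells. *Rarb*, a receptor gene that is itself a known target of retinoic acid, was at 32.3 and 28.6 CPM in members, 1.75-fold (1.46 to 2.08) and 1.48-fold (1.18 to 1.85) over the other *Sox2*-positive cells. *Rarb* was higher still in collagen-rich cells, at 183 and 177 CPM. The 6 receptor genes together were at 108 and 104 CPM in members against 92.6 and 90.5 CPM.

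Of the 9 genes for calcitonin family receptors, their ligands and RAMPs, *Ramp1* alone reached 50 CPM in members. *Calcrl*, the receptor that RAMP1 joins to bind CGRP, was at 2.31 and 2.82 CPM, and *Ramp2* and *Ramp3* were at or under 3.58 CPM in both libraries. For *Gpha2*, the partner subunit gene of thyrostimulin, *Gphb5*, had 0 UMIs in every group compared here. *Tshr*, the receptor of that hormone, was at 0.128 CPM in male members and had 0 UMIs in female members.

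The Notch pathway list holds 21 genes, of which 5 reached the level limit, with 1 higher (*Dlk1*) and 1 lower (*Hes6*). Their median log2 ratio was 0.63 in male and 0.83 in female cells, against -0.03 and -0.04 over all genes tested. The receptor gene *Notch2* was at 214 and 237 CPM against 137 and 131 CPM. The target gene *Hey1* was at 224 and 238 CPM, 2.09-fold and 1.95-fold over the other *Sox2*-positive cells, just short of the limit in the female library. *Hes1*, another target, was at 789 and 1598 CPM, 1.51-fold and 1.41-fold. *Hes6*, which encodes an inhibitor of HES1, was lower at 126 and 88.7 CPM against 563 and 377 CPM. The median log2 ratio of the list depended on the cells compared. It was -0.16 in male and 0.27 in female cells against *Ednrb*-rich quiescent cells, and 0.25 and 0.26 against cycling *Aldh1a2*-rich cells. Against *Sox2*-positive cells with *Lef1* (below) it was 1.81 and 1.86.

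The transcription factors of pituitary progenitors differed little. Of 11 tested genes of that list, 0 were higher and 1, *Isl1*, was lower, and the median log2 ratio was 0.14 in both libraries. *Isl1* reached the level limit only through the other *Sox2*-positive cells, so its place in this count is no measure of the list. *Sox9* was at 99.1 CPM in male and 114 CPM in female members, 1.37-fold and 1.32-fold over the other *Sox2*-positive cells. *Six3* was at 514 and 534 CPM, 1.15-fold and 1.14-fold. *eGFP* was at 23.0 and 15.6 CPM in members.

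Cell cycle genes that the rule did not name were low in members. The 20 such G2 and M phase genes together were at 25.8 CPM in male and 29.4 CPM in female members, against 812 and 702 CPM in the other *Sox2*-positive cells. At least 3 UMIs of this list were found in 0.289% and 0.540% of thinned members, against 16.8% and 12.2%. The 18 S phase genes were at 240 and 253 CPM against 748 and 660 CPM. At least 3 UMIs of the S phase list were found in 14.3% and 15.5% of thinned members, against 37.9% and 31.3%. A limit on cell cycle genes was part of the rule, and these genes are expressed together with the ones it used. *Pclaf*, which encodes a PCNA-binding factor, was at 2.44 and 0.941 CPM against 148 and 109 CPM, and *Nusap1*, a spindle protein gene, at 1.41 and 0.565 CPM against 83.3 and 92.5 CPM.

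No CDK inhibitor gene was past 2-fold higher in these quiescent cells. Of 6 tested genes on the list of CDK inhibitors and growth arrest genes, 0 were higher and 1, *Gadd45g*, was lower. *Cdkn1c*, which encodes p57, was at 472 and 443 CPM in members against 719 and 701 CPM in the other *Sox2*-positive cells. *Cdkn1a*, which encodes p21, was at 16.03 and 12.1 CPM against 37.0 and 37.4 CPM. *Cdkn1b*, which encodes p27, was at 101 and 106 CPM against 89.8 and 86.7 CPM, and *Ccnd1*, a G1 cyclin gene, at 288 and 294 CPM against 252 and 219 CPM.

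Of the 11 genes on the list of differentiating SCs, 5 were tested. They include genes that reached the level limit only through the other *Sox2*-positive cells, where they are high, so their count is no measure of the list. *Smoc2*, which encodes a matrix protein, was at 4.87 and 3.77 CPM against 105 and 86.2 CPM. *Isl1* and *Insm1*, factors of endocrine cells, were at 41.4 and 31.1 CPM and at 42.6 and 31.3 CPM, against 162 and 129 CPM and 126 and 116 CPM.

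The 562 male and 253 female cycling *Aldh1a2*-rich cells differed from members by the rule in the cell cycle alone. Of 3003 genes tested, 0 (0%) were higher in members and 135 (4.5%) were lower. Of the 135, 24 were on the lists of cell cycle genes. These 24 were all 10 S phase and all 14 G2 and M phase genes tested. Listed genes could reach the level limit through the cycling cells alone, so their count is no measure of the lists. The other lower genes were not sorted by function. *Gpha2* was at 225 and 135 CPM in the cycling cells and only 1.22-fold and 1.23-fold higher in members. *Dlk1* was 1.18-fold and 1.13-fold higher. The genes with the highest excess in members were *Cldn10*, *Aldoc*, *Prr15*, *Calml4*, *Prdx6* and *Kdm5b*. *Cldn10* had 59.1 CPM (53.8 to 64.8) in male members and 58.0 CPM (51.7 to 64.8) in female members, and 26.2 and 30.4 CPM in the cycling cells, a ratio of 2.26 (1.82 to 2.81) and 1.90 (1.40 to 2.61). *Ramp1* was 1.78-fold (1.57 to 2.02) and 1.61-fold (1.34 to 1.93) higher in members. *Ccnd1* was at 428 and 435 CPM in the cycling cells, 1.49-fold and 1.48-fold over members. These cells were deeper than members, with median depths of 14556 and 11800 UMIs.

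Quiescent cells with at least 2 UMIs of *Ednrb* were the second group of quiescent SCs. They met the other limits of the rule, without a limit on *Aldh1a2*, and their median depths were 8025 and 8187 UMIs. Of 2993 genes, 17 (0.568%) were higher and 37 (1.24%) lower in members. *Aldh1a2* itself was at 522 and 392 CPM in the *Ednrb*-rich cells. *Sox2* was at 728 and 821 CPM there against 574 and 704 CPM in members, and *Sox9* at 132 and 145 CPM against 99.1 and 114 CPM.

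The genes with the highest excess over *Ednrb*-rich cells were *Gpha2*, *Dlk1*, *Ddit4l*, *Lgals9*, *Rgs2*, *Mgll*, *Pcdh17* and *Zdbf2*. *Gpha2* was 4.79-fold (3.94 to 5.86) and 5.99-fold (4.85 to 7.44) higher in members, from 57.2 and 27.8 CPM in the *Ednrb*-rich cells. *Dlk1* was 2.93-fold (2.80 to 3.07) and 3.61-fold (3.48 to 3.74) higher. *Lgals9*, which encodes a galectin, was at 174 and 155 CPM against 37.9 and 56.7 CPM. *Ramp1* was 2.95-fold and 2.43-fold and *Crym* 2.24-fold and 2.31-fold higher. *Aldh1a3*, a second retinaldehyde dehydrogenase gene below the level limit, had 65 UMIs in male members and 0 in the 298 male *Ednrb*-rich cells, which allows up to 1.03 CPM there, and 39 UMIs in female members against 3.

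Among epithelial junction genes, 4 claudin genes were at 50 CPM or more in both groups, and these 4 were lower in members: *Cldn3*, *Cldn6*, *Cldn7* and *Cldn9*. *Cldn4* and *Cldn23* reached the level limit only through *Ednrb*-rich cells, and *Cldn10* only through members. *Cldn10* was 1.70-fold (1.27 to 2.29) and 1.73-fold (1.35 to 2.22) higher in members. *Cldn3* was at 278 and 361 CPM in members against 697 and 799 CPM, and *Cldn4* at 18.8 and 36.5 CPM against 97.8 and 108 CPM. On the list of epithelial adhesion and keratin genes, 9 were tested, and 3 of them were lower in members: the keratin genes *Krt8* and *Krt18* and the cadherin gene *Cdh26*. *Cdh26* reached the level limit only through *Ednrb*-rich cells, and the other 6 were not past 2-fold. *Krt18* was at 614 and 666 CPM against 1437 and 1346 CPM. *Epcam*, a general epithelial adhesion gene, was not lower, at 2450 and 2249.9 CPM against 2085 and 2100.1 CPM.

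**Figure D4:**
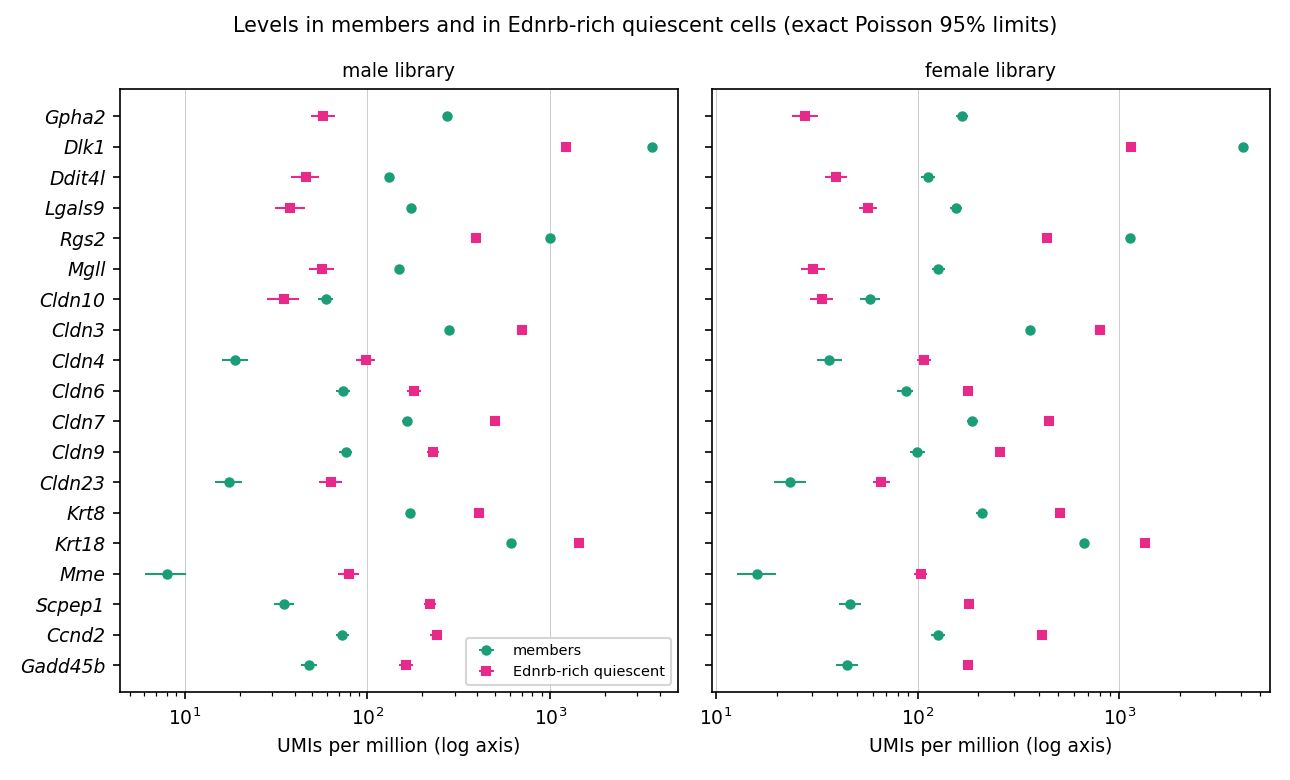
Level (CPM, log axis) of 19 genes in members (green circles) and *Ednrb*-rich quiescent cells (pink squares), with the male library at left, the female library at right and exact Poisson 95% limits as bars. The upper 7 genes, *Gpha2* to *Cldn10*, are higher in members, and the other 12, among them 6 claudin genes and *Krt8* and *Krt18*, are higher in *Ednrb*-rich cells.

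The genes furthest below *Ednrb*-rich cells were *Mme*, *Scpep1*, *Cd59a*, *Tm4sf1*, *Gadd45b*, *Ccnd2*, *Pid1* and *Cryab*. *Mme*, which encodes the peptidase neprilysin, was at 7.95 CPM in male and 16.005 CPM in female members against 79.2 and 104 CPM. *Ccnd2*, a G1 cyclin gene, was at 72.8 and 126 CPM against 239 and 413 CPM, while *Ccnd1* was higher in members, 1.61-fold (1.41 to 1.83) and 1.72-fold (1.54 to 1.92). Values of 3 known target genes of YAP and TAZ follow, chosen after they were seen. *Ctgf* was at 3.21 and 7.53 CPM against 46.2 and 67.9 CPM, *Amotl2* at 12.2 and 16.9 CPM against 47.9 and 53.2 CPM, and *Cyr61* at 252 and 442 CPM against 782 and 852 CPM. Of the 4 genes of that pathway tested, 0 were past 2-fold in both libraries, since *Cyr61* differed 3.10-fold in male and 1.92-fold in female cells, and the median log2 ratio of the 4 was 0.0692 and 0.0038. *Isl1* and *Insm1* were also lower in members than in *Ednrb*-rich cells.

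The 14 immediate-early and stress genes together were at 14150 CPM in male and 14032 CPM in female members against 19158 and 16391 CPM. None of the 11 genes tested was past 2-fold in both libraries. The S100 protein and aquaporin genes were at 1597 and 1721 CPM together against 2197 and 2415 CPM. *Aqp3*, a water and glycerol channel gene, was an exception, with 29.6 and 19.8 CPM in members against 6.89 and 3.67 CPM.

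*Lef1*-positive cells, which express *Sox2* and hold at least 1 UMI of *Lef1*, differed from members in more genes than any of the other 3 groups. Of 3147 genes, 192 (6.1%) were higher and 120 (3.81%) lower in members. Genes of the list of differentiating SCs could reach the level limit through *Lef1*-positive cells alone, so they are given by value only. *Smoc2* was 50.7-fold (36.0 to 73.4) and 63.5-fold (39.7 to 108) higher in *Lef1*-positive cells, and *Hes6* 9.09-fold and 9.91-fold higher. The CDK inhibitor gene *Cdkn1c* was at 1048 and 1076 CPM in *Lef1*-positive cells, 2.22-fold and 2.43-fold over members. The genes with the highest excess in members were *Pcp4l1*, *Gpha2*, *Gstm1*, *Crym*, *Hes1* and *Tnfaip2*, with *Hes1* 4.67-fold and 5.73-fold higher. *Aldh1a2* was at 187 and 172 CPM in *Lef1*-positive cells. These cells were deeper than members, with median depths of 13969 and 12407 UMIs.

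Most hormone UMIs of male members came from few cells. At least 50 UMIs of *Pomc*, *Gh*, *Prl* or *Cga* were found in 30 male (4.20%) and 7 female (1.23%) members. These cells held 95.4% of the *Pomc*, 98.3% of the *Gh* and 90.3% of the *Cga* UMIs of male members. Without them, *Pomc* was at 187 CPM in male members instead of 3899 CPM, *Gh* at 84.0 instead of 4601 CPM, and *Cga* at 49.3 instead of 475 CPM. In female members these cells held 84.6% of the *Pomc* UMIs but 36.2% of the *Gh* and 0% of the *Cga* UMIs. *Pomc* was at 55.3 CPM without and 354 CPM with them, and *Gh* at 147 CPM without and 228 CPM with them. What these cells are was not tested.

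Markers of other cell types were near 0. The 6 endothelial genes together were at 1.15 CPM in male and 0.753 CPM in female members, the 6 immune genes at 1.41 and 2.26 CPM and the 5 red cell genes at 0.769 and 1.13 CPM. Of the endothelial genes, 1 was at 0 UMIs in male and 3 in female members, of the immune genes 4 and 5, and of the red cell genes 3 and 4. The 8 mesenchymal genes were at 11.4 and 10.7 CPM, against 9730 and 11373 CPM in collagen-rich cells, and 1 of them had 0 UMIs in each library. The rule limited collagen UMIs and required *Sox2*, while the collagen-rich cells were chosen the opposite way. This difference was therefore partly set by the choice of cells. The 6 pituicyte genes were at 25.5 and 31.6 CPM, nearly all from *Slc1a3* at 23.2 and 29.7 CPM, and 2 of them had 0 UMIs.

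Between the libraries, 39 of 3045 genes (1.28%) were at least 1.5-fold higher in female members and 34 (1.12%) at least 1.5-fold higher in male members. Sex and library cannot be told apart here. The selection gene *Aldh1a2* was at 998 and 1022 CPM, a female over male ratio of 1.02, and *Ramp1* and *Cldn10* had ratios of 0.977 and 0.981. *Gpha2* was lower in female members, at a ratio of 0.608 (0.545 to 0.678), and *Crym* at 0.711 (0.656 to 0.771). In the other *Sox2*-positive cells, *Gpha2* had a ratio of 0.503 (0.473 to 0.534) and *Crym* of 0.740 (0.710 to 0.771).

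The genes with the highest female over male ratios were *AY036118*, *AC160336.1*, *Hes1*, *Csnk2a1*, *Phpt1* and *Rnaset2b*. *Hes1* was at 789 CPM in male and 1598 CPM in female members, a ratio of 2.02 (1.93 to 2.12). It was at 522 and 1136 CPM in the other *Sox2*-positive cells and at 175 and 235 CPM in collagen-rich cells, a ratio there of 1.34 (1.15 to 1.56). *Phpt1* had a ratio of 1.99 (1.72 to 2.30) in members and 1.75 (1.40 to 2.19) in collagen-rich cells. Of the 39 genes higher in female members, 36 had at least 20 UMIs in collagen-rich cells, where 31 were higher in the female library and 13 past 1.5-fold. The same shares over all genes of the collagen-rich cells were not computed, so these counts have no base to be judged by.

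The genes with the lowest ratios were *Cga*, *Gh*, *Pomc*, *Chga*, *Pcsk1n* and *Scg2*, all genes of endocrine cells. *Gh* and *Scg2* were the other way round without the 30 male and 7 female hormone-rich members, with *Gh* at 84.0 CPM in male and 147 CPM in female members. Without these cells the lowest ratios were those of *Pomc*, *Gstp1*, *Gm10076*, *Erh*, *Ccdc85b* and *mt-Nd4l*. *Gstp1* was at 87.5 and 27.9 CPM in all members, a ratio of 0.319 (0.2499 to 0.404), and had a ratio of 0.303 (0.231 to 0.394) in collagen-rich cells. *Erh* had ratios of 0.441 and 0.405 in these groups. Of the 34 genes higher in male members, 32 had at least 20 UMIs in collagen-rich cells, where 29 were higher in the male library and 20 past 1.5-fold. Here too, the shares over all genes were not computed. *Gm10076* is a gene model that can share reads with near-identical copies, so its count is uncertain.

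**Figure D5:**
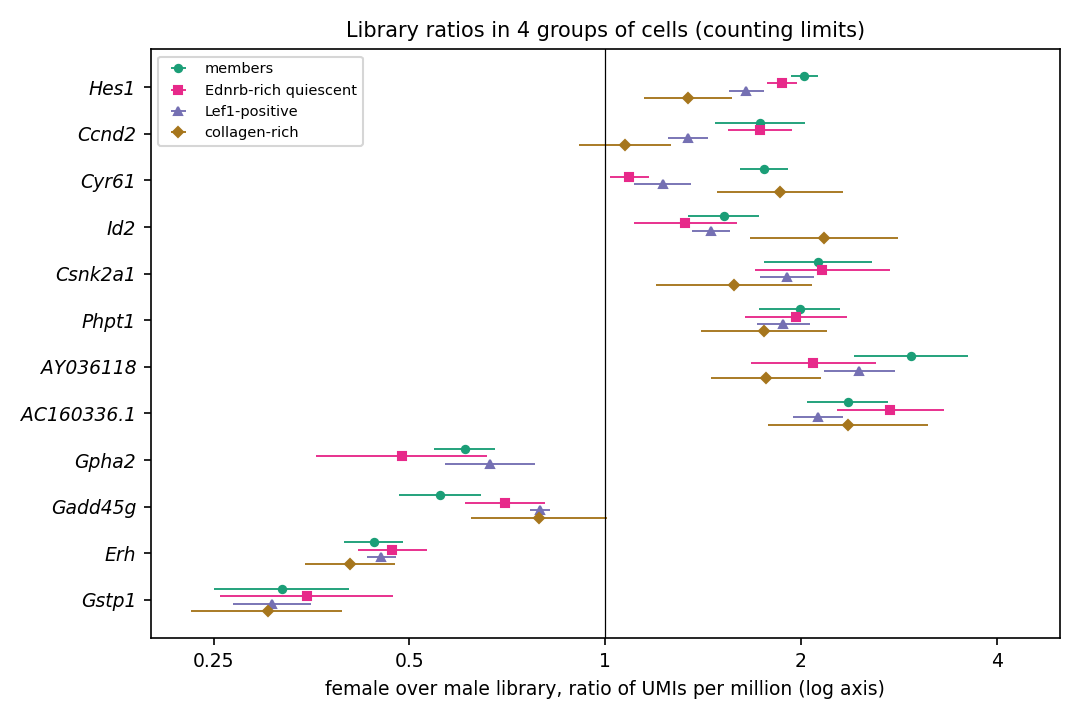
Ratio of the female over the male library in CPM (log axis) for 12 genes in members and 3 other groups of cells, with counting limits as bars and a line at 1. Ratios from under 20 UMIs are not drawn. *Gstp1* and *Erh* lie at like values in all 4 groups, and *Hes1* is at 2.02 in members and 1.34 in collagen-rich cells.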

How the data were processed

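Sox9iresGFP-positive cells of pooled male and female pituitaries (postnatal day 3) were captured as 1 droplet library per sex. Per the file headers, the authors ran Cell Ranger 3.0.2 on mm10 with an eGFP sequence added, and deposited UMI counts for 31055 features as whole numbers without normalization; their processing notes name R 3.6.0 and Seurat 3 and 4, not used here. Barcodes with at least 1000 genes and at most 10% mitochondrial UMIs were kept. No doublets were removed. Levels are UMI sums of a group of cells per 1000000 (CPM) with exact Poisson 95% limits, and shares have exact Clopper-Pearson limits. Limits of a ratio divide opposite limits and are wider than 95%. A count of 0 allows up to 3 counts. Thinning to 5000 UMIs used seed 1.

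Members, gene lists (29) and named genes were chosen with earlier results of these data known. Genes were ranked by the smaller of the 2 libraries' log2 ratios with 5 CPM added, among genes with 50 CPM in either group and 100 UMIs in each library, leaving out the 20 genes of the rule and *Xist*, *Tsix* and 4 Y-linked genes. The 12 highest and lowest are named against the other *Sox2*-positive cells, 8 against *Ednrb*-rich, 6 against other groups and between libraries, with list members as examples. Genes shown with cells left out, and other genes described, were chosen after their values were seen. Alternatives are in the closing section. The intervals were checked on simulated Poisson counts. Such counts hold no variation between cells beyond counting error, so the check does not cover that variation. The thinning was checked on cells of the libraries. Python 3.11.15, numpy 2.4.6, scipy 1.17.1, pandas 2.3.3 and scanpy 1.11.5 (Scrublet) were used. The promoter windows are from RefSeq. Some genes of the lists are not reported here.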

Additional observations from a re-analysis of the deposited data

Results flagged for a closer look

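In 4 genes of the lists, the ratios of members over the other *Sox2*-positive cells lay on opposite sides of 1 in the libraries, with counting limits clear of 1 in each. *Cd9* was at 1.09 in male and 0.928 in female cells, *Dusp1* at 1.15 and 0.945, *Six6* at 1.06 and 0.932, and *Gh* at 1.95 and 0.671. The difference between the libraries was not tested, and *Gh* rests on the few hormone-rich members. Among barcodes removed for few genes or a high mitochondrial share, 3 male and 0 female ones met all limits of the rule on genes.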

How the results depend on the processing

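With 1 library per sex, leaving out a library leaves no comparison, and depth differs between the groups compared. No paired analysis was possible because the libraries share only replicate number 1 and no result comes from a test. With *Aldh1a2* at 6 or more UMIs, members were 9.41% of male and 8.40% of female *Sox2*-positive cells, and with *Ednrb* at 1 UMI or fewer 15.5% in both. With either setting 2 genes were higher than in cycling cells. With counts thinned to 5000 UMIs before the rule, the male share was 14.0%, the ratio of shares 0.8003 and 3 genes were higher than in cycling cells. With at least 2000 genes per cell the male share was 13.3%. With a level limit of 20 CPM, 35 genes were higher and 167 lower than in the other *Sox2*-positive cells, 45 and 87 against *Ednrb*-rich cells, 369 and 234 against *Lef1*-positive cells, and 266 lower than in cycling cells, while 92 were higher in female and 95 in male members. With 3-fold between groups and 2-fold between libraries, 0 genes were higher and 28 lower than in the other *Sox2*-positive cells, 1 and 7 against *Ednrb*-rich, 0 and 90 against cycling and 75 and 56 against *Lef1*-positive cells, while 4 were higher in female and 14 in male members.

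For named genes, 192 log2 ratios were each recomputed under 7 settings, which gave 1344 values. Of these, 1072 stayed within the counting limits of the main value, 266 moved outside them in the same direction and 6 changed sign. The settings differed in this. With thinning before the rule, 82 of 192 stayed, 108 moved and 2 changed sign. With at least 2000 genes per cell, all 192 stayed. For members over the other *Sox2*-positive cells, *Pid1* in the male library was at -0.14 with thinning, -0.0542 with the mean of single-cell CPM and -0.0039 without hormone-rich cells, and *Kdm5b* in the female library at -0.0602 with thinning. For female over male members without hormone-rich cells, *Gh* was at 0.78 and *Scg2* at 0.0513. The setting without hormone-rich cells was chosen after seeing the data. The causes were not tested.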
